A study of Mus musculus with 1 sample.

Results

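The genes of lipid handling and of lipid-associated macrophages described here, Trem2, Gpnmb, Fabp4, Fabp5, Lpl, Plin2, Cd36, Cd9, Lgals3 and Hilpda, were followed across the cells of a mouse colorectal tumor. They were given as a named list of 10 among the 32285 genes of the count table, by a rule that names genes and sets no threshold on a measured value. The study asked how ATP6V0A1, a subunit of the V-ATPase proton pump, acts in tumor cells on the tumor microenvironment (TME). MC38 cells, a mouse colon carcinoma line, were grown as tumors in C57BL/6J mice, and the label gives the genotype of the sample as WT. The 1 library analysed here held 5 control tumors pooled, so no replicate was available and the knockdown pool was not analysed here. The age of the mice and the control hairpin of this library were not given in the labels, and the methods describe a non-targeting hairpin for the control tumors.

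Lipid-associated macrophages take up lipoproteins, dying cells and fatty acids and store or break down their lipid. TREM2 is a surface receptor for lipids and lipoproteins that signals through the adaptor TYROBP. CD36 imports fatty acids, lipoprotein lipase (Lpl) frees them from triglyceride, FABP4 and FABP5 carry them through the cytoplasm, and perilipin 2 (Plin2) and HILPDA sit on the lipid droplet, where HILPDA inhibits the lipase that empties it. GPNMB, CD9 and galectin-3 (Lgals3) are a lysosomal and surface glycoprotein, a tetraspanin and a sugar-binding lectin that mark these macrophages in fat, liver and atherosclerotic plaque.

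Of 5307 cell barcodes, 4468 were kept, with a median of 10448 UMIs (unique molecular identifiers, each counting 1 captured transcript). Clusters were named from marker genes, and the 10 genes, the other lipid genes and the hypoxia genes described below were left out of the clustering. The tumor-like cells numbered 1867, macrophage-like cells 1265, monocyte-like cells 222, T and NK-like cells 164, DC-like cells 49, fibroblast-like cells 43, granulocyte-like cells 42 and endothelial-like cells 32, and 784 cells, most of them shallow, stayed unnamed. Among the unnamed cells, clusters of 244 and 156 cells had 9 and 8 of the 9 macrophage markers raised. The macrophage-like group may therefore leave out shallow macrophages. The label gives epithelial cells as the cell type, while the library also held these immune and stromal cells. Defining epithelial genes were at or near 0 in the tumor-like cells, with 0 UMIs of the keratin Krt18, 6 of Krt8, 1 of the adhesion molecule Epcam and 14 of the cadherin Cdh1 in 77009879. The tumor-like name rested on other markers, such as Tm4sf1 at 1085 CPM and Rhox5 at 695 CPM (UMIs per 1000000 of the group). Among the macrophage-like cells 4 clusters carried a state name: Arg1 Spp1 (104 cells), interferon (112), proliferating (180) and C1q Mrc1 (23). The C1q Mrc1 name rested on 3 of the 6 genes of its list. That list summed to 17148 CPM in the cluster, below the 19759 CPM of the other macrophage-like cells. The other clusters are called by their leading gene: Cxcl2 (255 cells), Dnase1l3 (239), Lyz1 (184) and Gbp2b (168). Likewise, the tumor-like clusters are called Tnnt2 (972 cells), Ogn (584) and Cox6a2 (311), and the fibroblast-like ones Sfrp4 (27) and Higd1b (16). All levels below are the UMIs of a gene per 1000000 UMIs of all genes in a group of cells (CPM), with a 95% interval that covers counting error only. With 1 library per group there was no test of any difference between groups.

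Across all groups the 10 genes did not share 1 pattern. In all, 5 of them (Trem2, Lpl, Cd36, Lgals3 and Hilpda) were at least 2-fold higher in macrophage-like than in tumor-like cells, where 21.7% of the 14636 genes compared were at least 2-fold higher. Fabp4 alone was at least 2-fold lower, where 26.7% of all genes were, and its ratio was 0.503 without a mitochondrial limit. Gpnmb, Fabp5, Plin2 and Cd9 differed by less than 2-fold between these cell types. The median log2 ratio was 1.09 over the 10 genes and -0.20 over all genes compared. Tumor-like cells had a median of 37766 UMIs and macrophage-like cells one of 10279.

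**Figure D1:**
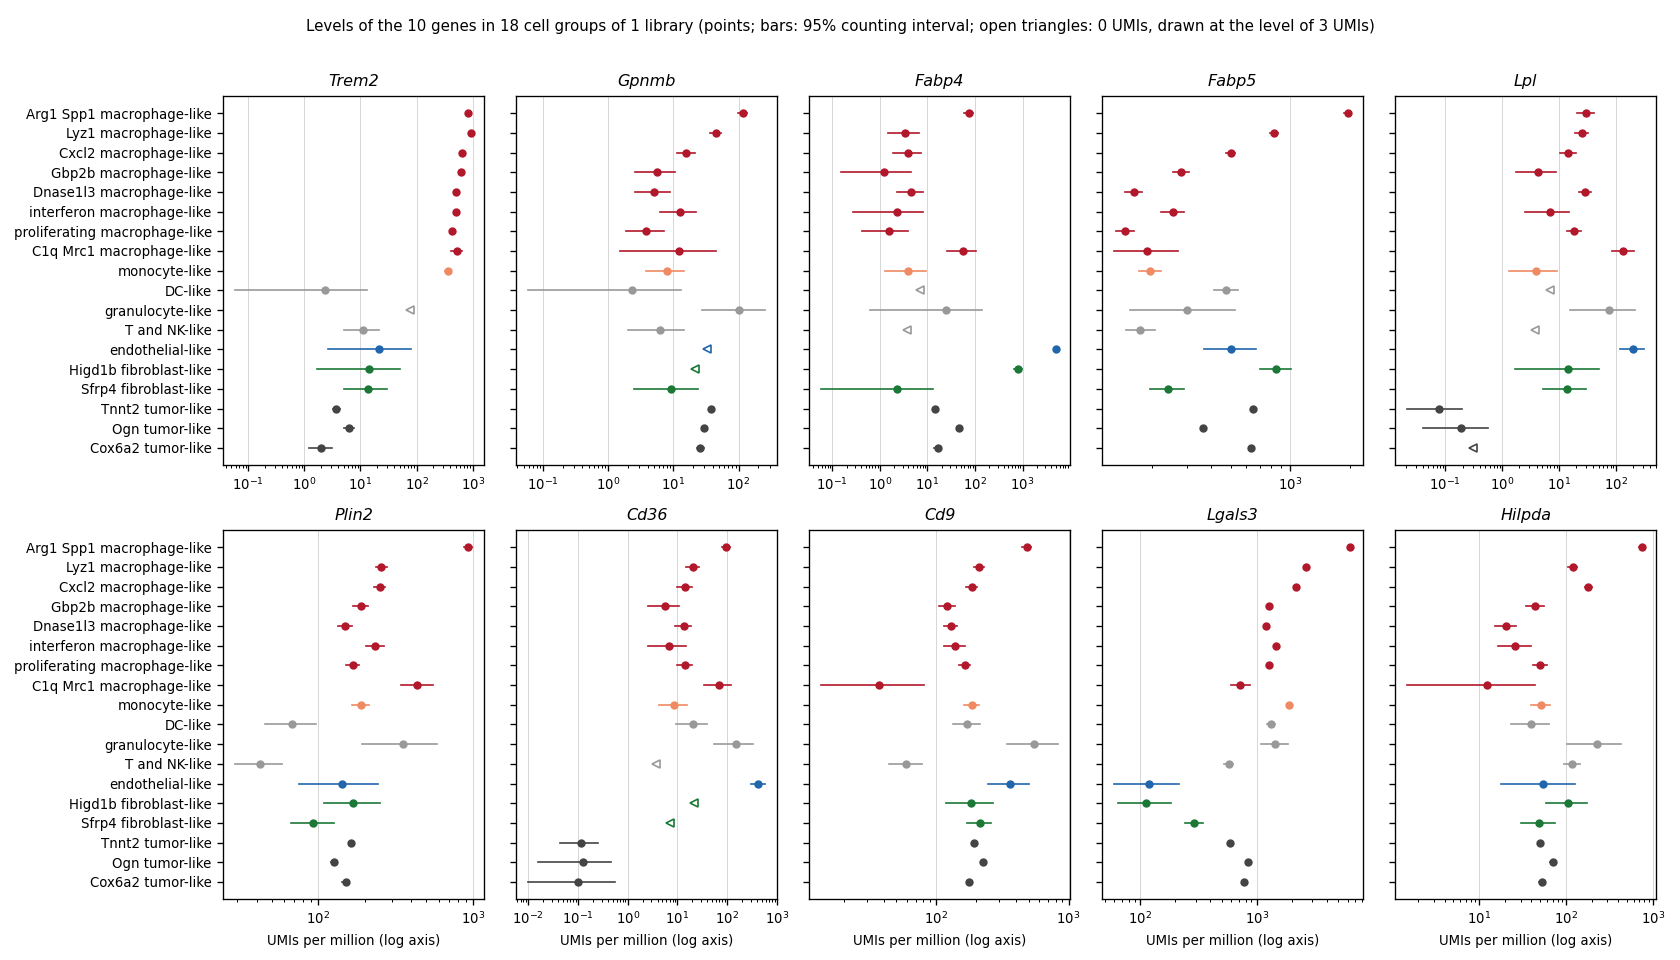
Levels of the 10 genes (x axis, UMIs per 1000000, log axis that differs between panels) in each named group of cells (y axis). Points are pooled levels, bars 95% counting intervals and open triangles mark 0 UMIs, drawn at the level of 3 UMIs. Arg1 Spp1 macrophage-like cells held the highest level of Fabp5, Plin2, Lgals3 and Hilpda, while Fabp4 and Cd36 peaked in endothelial-like cells. The highest Lpl levels, in endothelial-like and C1q Mrc1 cells, lay within counting error of each other and rest on 18 and 22 UMIs.

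Trem2 (ENSMUSG00000023992, chr17:48346401-48354147 in GRCm38) was a gene of macrophage-like and monocyte-like cells. Its level was 635.5 CPM (622 to 649, 8736 UMIs) in macrophage-like cells, 359 CPM (327 to 394) in monocyte-like cells and 4.01 CPM (3.58 to 4.49) in tumor-like cells. Macrophage-like cells stood 158-fold (141 to 178) above tumor-like cells. DC-like cells, the other antigen-presenting myeloid group, had 1 UMI of Trem2 in 49 cells, which is 2.33 CPM (0.0590 to 12.98). Within the macrophage-like cells the level lay between 427 and 940.1 CPM. The highest was 940.1 CPM (901 to 980.3) in the Lyz1 cluster, above 839.8 CPM (789 to 893) in the Arg1 Spp1 cluster. The Cxcl2 cluster followed at 654 CPM and the Gbp2b cluster at 619 CPM, and these neighbours could not be told apart by their counts. From the Gbp2b cluster through the C1q Mrc1 (522 CPM), Dnase1l3 (512 CPM) and interferon (502 CPM) clusters, neighbours also lay within counting error. The proliferating cluster was lowest at 427 CPM, below the interferon cluster by more than counting error. Tyrobp, which encodes the adaptor of TREM2, was 183-fold (172 to 194) higher in macrophage-like than in tumor-like cells, and Apoe, a lipoprotein that TREM2 binds, was 127-fold (125 to 129) higher.

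Lgals3 (ENSMUSG00000050335, chr14:47367751-47386160) was detected in every group. It was 2102 CPM (2078 to 2126) in macrophage-like cells, 1874.5 CPM (1800 to 1952) in monocyte-like cells and 661 CPM (655 to 667) in tumor-like cells. Its highest levels among the macrophage-like clusters stood apart by more than counting error. These levels ran from 6285 CPM (6144 to 6429) in Arg1 Spp1, 2644 CPM (2578 to 2711) in Lyz1, 2163 CPM (2106 to 2221) in Cxcl2 to 1471 CPM (1392 to 1553) in the interferon cluster. Single cells overlapped, with quartiles of 1316 and 3514 CPM in Lyz1 and 924 and 2685 CPM in Cxcl2 cells. Below the interferon cluster lay the proliferating (1276 CPM) and Gbp2b (1272 CPM) clusters, within counting error of each other. The Dnase1l3 cluster held 1199 CPM and the C1q Mrc1 cluster 724 CPM. Endothelial-like cells held the least, 119.9 CPM (59.9 to 214.5), from 11 UMIs. Cd9 (ENSMUSG00000030342, chr6:125460266-125494791, minus strand) was present at like levels in most groups. Its level was 189.6 CPM (182 to 197) in macrophage-like cells, 198 CPM (195 to 201) in tumor-like cells, 186 CPM (163 to 211) in monocyte-like cells and 205 CPM (170.0 to 246) in fibroblast-like cells. Granulocyte-like (551 CPM, 345 to 834, 22 UMIs) and endothelial-like cells (360 CPM, 248 to 505, 33 UMIs) held more of Cd9. Among the macrophage-like clusters it was 484 CPM (445 to 524.5) in Arg1 Spp1 cells and 36.8 CPM (13.5 to 80.2) in C1q Mrc1 cells, and between 120 and 212 CPM in the rest. T and NK-like cells held 59.2 CPM (43.7 to 78.5). The 2 genes annotated on the opposite strand of Cd9, Gm28809 and Gm26728, had 84 and 6 UMIs in all kept cells against 18633 of Cd9. Gpnmb (ENSMUSG00000029816, chr6:49036546-49070929) was a low gene, at 23.9 CPM (21.4 to 26.6) in macrophage-like and 34.4 CPM (33.1 to 35.7) in tumor-like cells. Among the macrophage-like clusters it reached 116 CPM (97.3 to 137) in Arg1 Spp1 and 45.1 CPM (36.9 to 54.6) in Lyz1 cells, and 3.84 CPM (1.84 to 7.07) in proliferating cells.

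The fatty acid binding proteins Fabp4 and Fabp5, whose genes both lie on chromosome 3, were highest in different cells. Fabp5 (ENSMUSG00000027533, chr3:10012548-10016607) was present in all groups, at 509.6 CPM (498 to 522) in macrophage-like, 589 CPM (584 to 594) in tumor-like, 475 CPM (412 to 545) in DC-like and 501 CPM (367 to 669) in endothelial-like cells. The Arg1 Spp1 cluster held 1940.0 CPM (1862 to 2020.4), the Lyz1 cluster 825 CPM (788 to 862), and the proliferating cluster 147 CPM (133 to 163). Processed pseudogenes of Fabp5 exist in the mouse genome, and reads shared with them may have been lost or misplaced, so its level is uncertain in all groups alike. Fabp4 (ENSMUSG00000062515, chr3:10204088-10208576, minus strand), the fatty acid binding protein of fat cells and of capillary endothelium, was 5112 CPM (4660 to 5596) in endothelial-like cells. It was 9.75 CPM (8.17 to 11.5) in macrophage-like and 21.4 CPM (20.4 to 22.5) in tumor-like cells, and no UMI of it was found in 49 DC-like or 164 T and NK-like cells, where 3 UMIs would amount to 6.99 and 3.70 CPM.

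Cd36 (ENSMUSG00000002944, chr5:17781690-17888801, minus strand) and Lpl (ENSMUSG00000015568, chr8:68880491-68907448) were nearly absent from tumor-like cells, with 9 and 7 UMIs in 77009879. Cd36 was 21.5 CPM (19.1 to 24.1) in macrophage-like cells, which was 184-fold (95.4 to 406) above tumor-like cells, and 425 CPM (302 to 581) in endothelial-like cells. Its level was 96.5 CPM (79.8 to 115.8) in Arg1 Spp1 cells and 67.5 CPM (33.7 to 120.8) in C1q Mrc1 cells, which could not be told apart by their counts, and 5.56 to 20.6 CPM in the other macrophage-like clusters. Lpl was 20.5 CPM (18.2 to 23.1) in macrophage-like cells, 226-fold (108 to 567) above tumor-like cells. It reached 196 CPM (116 to 310.1) in endothelial-like cells and 135 CPM (84.6 to 204) in C1q Mrc1 cells, again within counting error of each other. Both levels rest on few UMIs, 18 in 8 of 32 and 22 in 5 of 23 cells. In the 9 endothelial-like cells of at least 3000 UMIs Lpl was 14.5 CPM, from 1 UMI, below the 20.2 CPM of macrophage-like cells of that depth, and as a mean over cells it was 474 CPM. Neither gene had a UMI in the T and NK-like cells.

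Plin2 (ENSMUSG00000028494, chr4:86648386-86670060, minus strand), the coat protein of lipid droplets, was 271 CPM (262 to 279.6) in macrophage-like and 153 CPM (150.3 to 156) in tumor-like cells, a ratio of 1.77 (1.71 to 1.84). Among the macrophage-like clusters it reached 931 CPM (878 to 987.5) in Arg1 Spp1 cells, followed by C1q Mrc1 cells at 436 CPM (340.3 to 549.7) and Lyz1 cells at 256 CPM (236 to 277). Hilpda (ENSMUSG00000043421, chr6:29272488-29275446), whose full name is hypoxia inducible lipid droplet associated, was high in Arg1 Spp1 cells above all. It stood at 739.9 CPM (692 to 790.2) in Arg1 Spp1 cells, 181 CPM (165 to 198) in Cxcl2 cells and 119.8 CPM (106 to 135) in Lyz1 cells. The interferon cells held 26.2 CPM (16.6 to 39.3), the Dnase1l3 cells 20.4 CPM (15.1 to 26.9) and the C1q Mrc1 cells 12.3 CPM (1.49 to 44.3, 2 UMIs), and the lowest neighbours in this order could not be told apart by their counts. Tumor-like cells had 54.4 CPM (52.8 to 56.1).

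RefSeq promoter windows on GRCm38.p6 were found for 7 of the 10 genes (Trem2, Gpnmb, Plin2, Cd36, Cd9, Lgals3 and Hilpda). The 250 bases before each start were searched on both strands for the core letters of the hypoxia response element, ACGTG and GCGTG, and 38.6% of the 32851 windows of that length held at least 1 of them. Hilpda has 2 annotated starts. The window before the upstream start (chr6:29272238-29272487, plus strand) held no core, and the window before the downstream start (chr6:29272376-29272625) held 3. The windows are shown for Hilpda and Plin2, the lipid droplet genes that were highest in Arg1 Spp1 cells, and for Trem2, which differed least between macrophage-like clusters, with the cores in capitals (CACGC is GCGTG on the other strand). Of the downstream Hilpda window the stretches around the cores 111 and 43 bases before the start are given (chr6:29272502-29272531 and chr6:29272570-29272599), and its last core lay 8 bases before the start. Plin2 (chr4:86670060-86670309, minus strand), Trem2 (chr17:48346151-48346400, plus strand) and Lgals3 each held 1 core, and Gpnmb, Cd36 and Cd9 held 0, so a core was found for 4 of the 7 genes. An annotated exon covered 121 bases of the downstream Hilpda window, all 250 of the Cd9 window and 47 of the Lgals3 window. The cores of the downstream Hilpda window all lay after the upstream start, and so inside the gene as transcribed from that start. The PPAR response element, a direct repeat spaced by 1 base (0.0335% of all windows), and the E-box CACGTG (6.02%), which holds the core ACGTG, were found in none of the windows of the 7 genes.
Hilpda, upstream start: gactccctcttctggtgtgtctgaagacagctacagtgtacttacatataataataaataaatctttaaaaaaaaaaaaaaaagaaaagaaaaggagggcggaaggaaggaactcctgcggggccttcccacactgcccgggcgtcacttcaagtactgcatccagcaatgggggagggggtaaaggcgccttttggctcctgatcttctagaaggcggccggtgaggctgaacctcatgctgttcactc
Hilpda, downstream start, first core: tcaaccgcgagccGCGTGctttccgtgact
Hilpda, downstream start, second core: ggatggccagcggACGTGccccagggcgag
Plin2: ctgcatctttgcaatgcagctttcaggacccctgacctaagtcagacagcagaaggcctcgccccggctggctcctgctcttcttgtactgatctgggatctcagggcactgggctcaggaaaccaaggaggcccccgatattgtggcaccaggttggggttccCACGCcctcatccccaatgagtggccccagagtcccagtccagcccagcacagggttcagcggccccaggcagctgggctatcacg
Trem2: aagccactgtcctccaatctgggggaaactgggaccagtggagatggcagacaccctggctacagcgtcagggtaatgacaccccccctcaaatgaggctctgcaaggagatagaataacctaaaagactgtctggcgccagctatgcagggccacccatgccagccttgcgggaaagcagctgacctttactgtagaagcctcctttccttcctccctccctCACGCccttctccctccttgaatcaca
A match is a run of letters and not a measured binding site.

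Within the macrophage-like cells the Arg1 Spp1 and the interferon states were compared. The rule that named states was revised after the levels of the 10 genes had been seen. The counts below therefore describe these states and are no test of them. Among the genes that named them, Arg1 (arginase) was 3568 CPM in the former and 355 CPM in the latter, and Ifit3, an interferon-induced gene, 53.3 and 884 CPM. In all, 9 of the 10 genes were at least 2-fold higher in Arg1 Spp1 cells and none was at least 2-fold lower, where 6.71% of the 8908 genes compared were higher and 20% lower. The median log2 ratio was 2.51 over the 10 genes and -0.30 over all genes. Fabp4 had the highest ratio, 32.2 (8.65 to 270.0), which rests on 88 against 2 UMIs. Hilpda followed at 28.3 (18.7 to 44.9) with 889 against 23 UMIs. The ratio was 14.2 (6.31 to 39.3) for Cd36, 9.25 (5.01 to 19.0) for Gpnmb, 7.58 (6.61 to 8.73) for Fabp5 and 4.27 (1.78 to 12.4) for Lpl. Lgals3 stood at 4.27 (4.03 to 4.54), Plin2 at 3.99 (3.44 to 4.66) and Cd9 at 3.51 (2.88 to 4.31). Trem2 was the exception, at 1.67 (1.495 to 1.88). Against all other macrophage-like cells together 8 of the 10 genes were at least 2-fold higher in Arg1 Spp1 cells (5.14% of 11957 genes), and Trem2 (1.36, 1.28 to 1.46) and Lpl (1.48, 1.01 to 2.11) were not.

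The extent of the Arg1 Spp1 state depended on the clustering and on the naming rule. In 10 of 12 other groupings it held 188 to 543 cells, and at most 334 under the same naming rule. The largest kept the same clusters, and 3 raised genes alone named a state. In it most of the 10 genes were lower, with Hilpda at 268 CPM, Plin2 at 387 CPM, Fabp5 at 909 CPM and Lgals3 at 3163 CPM. The ratio to the interferon state was at least 2 in 13 of 13 alternatives for 8 genes, and for Plin2 in all but 1. For Hilpda it ran from 7.05 to 32.0, for Fabp4 from 6.65 to 38.8, for Cd36 from 3.49 to 19.98, for Gpnmb from 5.74 to 16.9, for Fabp5 from 3.32 to 7.88, for Lpl from 2.18 to 5.19 and for Trem2 from 1.37 to 1.88. It fell to 1.90 for Plin2, 2.36 for Lgals3 and 2.01 for Cd9 where 3 raised genes alone named a state. Against all other macrophage-like cells 7 or 8 of the 10 genes were at least 2-fold higher in 14 of 14 alternatives, Cd9 not in 2 of them (1.84 and 1.98). The median depth was 11545 UMIs per cell in Arg1 Spp1 and 7475 in interferon cells, and the tumor markers summed to 135 CPM in Arg1 Spp1 and 189 CPM in interferon cells against 2118 CPM in tumor-like cells. Of the 9 tumor markers 2 were at 0 in Arg1 Spp1 and 4 in interferon cells. The macrophage markers summed to 14481 CPM in Arg1 Spp1 and 20779 CPM in interferon cells.

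**Figure D2:**
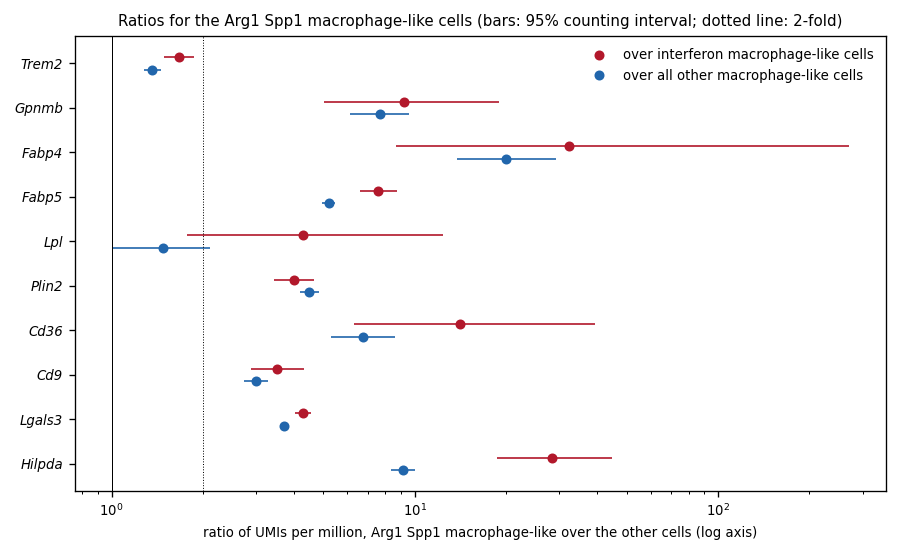
Ratio of the level of each gene (y axis) in Arg1 Spp1 macrophage-like cells over interferon macrophage-like cells (red) and over all other macrophage-like cells (blue), on a log axis. Bars are 95% counting intervals, the solid line marks 1 and the dotted line 2-fold. Trem2 lies left of 2-fold in both comparisons, and Lpl in the second.

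Arg1 Spp1 cells made up 8.22% of the macrophage-like cells and held 8.74% of their UMIs. These shares leave out the unnamed cells, among them a cluster of 156 cells with Arg1 among its leading genes. Of the macrophage-like UMIs the Arg1 Spp1 cells held a larger part for most of the 10 genes. They held 65.7% of the macrophage-like UMIs of Fabp4, 46.7% of those of Hilpda, 42.4% of Gpnmb, 39.3% of Cd36, 33.3% of Fabp5 and 30.1% of Plin2. For Trem2 the share was 11.6%, close to their share of all UMIs, and the Lyz1 cluster held the largest share, 25.1% with 16.95% of all UMIs. Lpl was divided differently. The Dnase1l3 cluster held 24.5% of its UMIs with 17.5% of all UMIs, and the C1q Mrc1 cluster 7.80% with 1.19% of all UMIs.

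**Figure D3:**
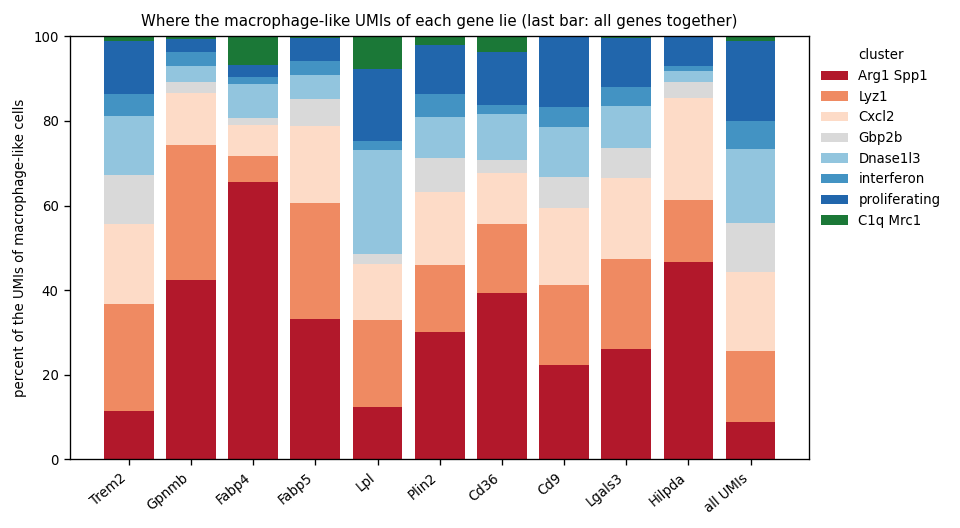
Percent of the UMIs of each gene in macrophage-like cells (y axis) that lay in each of the 8 macrophage-like clusters (colours), with all genes together in the last bar. The Arg1 Spp1 part of the bar (red, at the bottom) is 65.7% for Fabp4 and 46.7% for Hilpda against 8.74% for all UMIs.

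The spread between Arg1 Spp1 cells was wide for the low genes. The median cell had 698 CPM of Plin2 (quartiles 274 and 1464), 524 CPM of Hilpda (219.8 and 952) and 892 CPM of Fabp5 (333 and 2313). For Fabp5 the 10 cells with the most UMIs held 47.2% of them. Fabp4 was found in 21, Gpnmb in 35 and Cd36 in 36 of the 104 cells, and the 10 cells with the most Fabp4 UMIs held 84.1% of them. Leaving out the cell with the most, 18 UMIs, left the Fabp4 level at 59.0 CPM (46.0 to 74.5).

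A hypoxia list of 12 genes and a list of 48 further lipid genes were set beside these values. In Arg1 Spp1 over interferon cells 10 of the 12 hypoxia genes were at least 2-fold higher (6.71% of all genes) and none was lower (20%), with a median log2 ratio of 2.85. Egln3, an oxygen-sensing hydroxylase, was at 34.4 (11.5 to 169), Adm, the vasodilator adrenomedullin, at 28.9 (7.74 to 243) and Ero1a, a disulfide oxidase listed as Ero1l in the files, at 18.6 (12.4 to 29.3). The lowest ratios were those of Ldha (2.66, 2.42 to 2.92), P4ha1 (1.88, 1.44 to 2.48) and Pdk1 (1.85, 1.07 to 3.33). The summed level of the list was 5789 CPM in Arg1 Spp1 cells, 2754 CPM in the Cxcl2, 2684 CPM in the Lyz1, 1480 CPM in the interferon and 988 CPM in the C1q Mrc1 cluster. Across these clusters the summed list was highest in Arg1 Spp1 cells, as were Hilpda, Plin2, Fabp5 and Lgals3. It was lowest in C1q Mrc1 cells, where Lpl was at its highest macrophage-like level (135 CPM). Plin2 was next highest there (436 CPM), after Arg1 Spp1 cells. Fabp4 and Cd36 stood at 73.2 and 96.5 CPM in Arg1 Spp1 cells. In C1q Mrc1 cells they stood at 55.2 and 67.5 CPM, within counting error of the Arg1 Spp1 levels. The part of hypoxia in the levels of these genes was not tested.

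The wider lipid list stood closer to all genes. Of its 38 genes with enough UMIs 4 were at least 2-fold higher in Arg1 Spp1 than in interferon cells (Ctsl, Lipa, Abhd5 and Cpt1a) and 2 were lower, beside 6.71% and 20% of all genes, with a median log2 ratio of 0.28. The highest ratios among its well-counted genes were those of the lysosomal protease Ctsl (3.39, 3.05 to 3.78), the lysosomal lipase Lipa (2.75, 2.10 to 3.65) and the cholesterol exporter Abca1 (1.98, 1.54 to 2.57). The lowest were those of Acsl5 (0.659, 0.430 to 1.01), Acadm (0.637, 0.366 to 1.10) and Hadha (0.585, 0.385 to 0.886), which activate fatty acids or oxidise them in mitochondria. Of the 5 transcription factors on it, Pparg, Ppard, Nr1h3, Tfeb and Mitf, none differed by 2-fold. In macrophage-like over tumor-like cells 26 of 46 lipid genes were at least 2-fold higher and 8 lower, beside 21.7% and 26.7% of all genes. Abca1 (204.5, 156 to 273), Tyrobp and the scavenger receptor Msr1 (178, 144 to 221) led, and Angptl4 (0.174, 0.132 to 0.225), Acsl3 (0.144, 0.116 to 0.176) and Vldlr (0.0980, 0.0534 to 0.166) were lowest. Of the hypoxia list, Vegfa was 2.45-fold (2.33 to 2.58) higher in macrophage-like cells, Adm was lower (0.443, 0.370 to 0.528), and the other 10 genes lay within 2-fold.

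C1q Mrc1 macrophage-like cells, led by Retnla, Vsig4 and Cd163, held little Hilpda and, in the reported grouping, much Lpl, from only 23 cells and 162933 UMIs. Against the other macrophage-like cells Lpl was 7.05-fold (4.35 to 10.9) higher, Fabp4 6.00-fold (2.68 to 11.8) and Cd36 3.23-fold (1.59 to 5.87), which is 3 of 10 genes where 24.0% of 11957 were higher. In turn, 4 genes were at least 2-fold lower, where 6.38% of all genes were: Fabp5 (0.371, 0.252 to 0.527), Lgals3 (0.342, 0.283 to 0.410), Cd9 (0.192, 0.0705 to 0.419) and Hilpda (0.0876, 0.0106 to 0.317). Lpl was thus above the 28.7 CPM (22.3 to 36.3) of Dnase1l3 and the 29.1 CPM (20.3 to 40.5) of Arg1 Spp1 cells. However, 1 cell held 10 of its 22 UMIs, and its ratio was 1.48 with at least 500 genes per cell and 1.34 with 10 neighbours, with 4 UMIs in each. All 8 endothelial markers were at 0 in these 23 cells, and the monocyte markers summed to 2124 CPM against 370.4 CPM in Arg1 Spp1 cells.

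Proliferating macrophage-like cells were also set against the interferon cells. Of the 9 genes with enough UMIs Lpl (2.70, 1.16 to 7.73) and Cd36 (2.08, 0.872 to 6.04) were at least 2-fold higher, where 10.2% of 10119 genes were, and Gpnmb (0.307, 0.117 to 0.797) was lower, where 6.16% were. Hilpda stood at 1.92 (1.23 to 3.14) and Trem2 at 0.850 (0.761 to 0.952) of the interferon level. These calls depended on the grouping, since of 13 alternatives 9 kept that of Lpl (1.59 to 3.55), 11 that of Cd36 (1.30 to 3.53) and 8 that of Gpnmb (0.190 to 0.651).

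Monocyte-like cells, marked by Ly6c2 (1357 CPM, against 33.2 CPM in macrophage-like cells), held less of 6 of the 10 genes by at least 2-fold, where 10.3% of 12080 genes were lower. Lpl was at 0.193 (0.0623 to 0.457) of the macrophage-like level, Gpnmb at 0.333 (0.158 to 0.619), Hilpda at 0.372 (0.286 to 0.477), Fabp5 at 0.386 (0.339 to 0.438), Cd36 at 0.407 (0.201 to 0.738) and Fabp4 at 0.407 (0.130 to 0.973). Trem2 was at 0.566 (0.513 to 0.622) and Plin2 at 0.694 (0.606 to 0.792). Lgals3 (0.892, 0.855 to 0.930) and Cd9 (0.979, 0.853 to 1.12) were near the macrophage-like level. Of the 10 genes 0 were at least 2-fold higher in monocyte-like cells, where 4.35% of all genes were. The median depth of the monocyte-like cells was 4581 UMIs. The Lpl difference did not hold in 5 of 13 alternatives, with ratios of 1.04 with 3000 variable genes and 1.16 with 10 neighbours. The calls of Gpnmb (up to 0.669), Cd36 (0.628), Fabp4 (0.590) and Hilpda (0.505) were each lost in 1 of them, and Fabp5 stayed at 0.361 to 0.491. In DC-like cells 5 of the 10 genes were at least 2-fold below the macrophage-like level (Trem2, Gpnmb, Lpl, Plin2 and Hilpda), where 12.7% of 12054 genes were, and 0 were above it, where 11.6% were. Fabp5 (0.932, 0.807 to 1.07) and Cd9 (0.897, 0.701 to 1.13) of DC-like cells lay within counting error of the macrophage-like level.

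Endothelial-like cells held high levels of Fabp4 and Cd36. Their leading genes were Ccl21a, Mmrn1, Dll4, Selp and Cldn5. They were few and shallow (32 cells, median 893 UMIs, 91749 UMIs in all) and held all 8 endothelial markers, with Cdh5 at 1014 CPM and Pecam1 at 1003 CPM. Fabp4 was 524-fold (432 to 640.3) above the macrophage-like level, Cd36 19.8-fold (13.8 to 27.7) and Lpl 9.56-fold (5.59 to 15.4), so 3 of 10 genes were at least 2-fold higher, a share near the 27.7% of 12131 genes that were. Over 12 alternatives the Cd36 ratio ran from 9.65 to 41.6, and that of Lpl from 0.719, in cells of at least 3000 UMIs, to 26.0 as a mean over cells. Trem2 (0.0343, 0.00415 to 0.124), Lgals3 (0.0570, 0.0285 to 0.102) and Hilpda (0.393, 0.128 to 0.919) were lower, where 7.71% of all genes were. The Hilpda value rests on 5 UMIs, and as a mean over cells its ratio was 1.04. Fabp5 did not differ beyond its interval (0.984, 0.720 to 1.31). Gpihbp1, which holds lipoprotein lipase on the capillary wall, was 850.1 CPM in endothelial-like and 0.364 CPM in macrophage-like cells. Angptl4, an inhibitor of that lipase, was 25.4-fold (11.6 to 50.1) higher, and the lipoprotein receptor Scarb1 17.7-fold (10.8 to 27.6). The Fabp4 level leaned on few cells: 17 of 32 had a UMI and 1 cell held 220 of the 469. Without that cell the level was 3296 CPM (2899 to 3732) and the ratio 338 (273 to 420.3). The mean over cells gave a ratio of 264, and with 3000 variable genes the ratio was 748.

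Fabp4 was also found outside the endothelial-like cells. The Higd1b fibroblast-like cluster, whose leading genes Rgs5 and Kcnj8 are genes of pericytes, held 801 CPM (661 to 963) from 114 UMIs in 7 of 16 cells, of which 72 were in 1 cell, and without that cell it held 336 CPM (242 to 454). Its endothelial markers summed to 358.5 CPM, against 16.2 CPM in the Sfrp4 cluster and 7771 CPM in endothelial-like cells, while Cdh5 and Pecam1 were at 0. The Sfrp4 cluster had 1 UMI of Fabp4 (2.31 CPM, 0.0586 to 12.9). Fabp4 UMIs numbered 65.8 per 100 UMIs of the endothelial markers in endothelial-like cells, 223.5 in the Higd1b cluster, 196 in Arg1 Spp1 cells, 303 in Ogn tumor-like cells and 10.3 in macrophage-like cells outside the Arg1 Spp1 state. The part of endothelial RNA in these values was not tested. Over all 43 fibroblast-like cells 3 of the 9 genes with enough UMIs were at least 2-fold above tumor-like cells, where 22.7% of 14092 genes were, and 2 were below, where 7.85% were. Fabp4 was 9.34-fold (7.67 to 11.3), Lpl 153-fold (48.5 to 496, 8 against 7 UMIs) and Trem2 3.47-fold (1.49 to 6.92) higher, and Lgals3 (0.371, 0.313 to 0.438) and Gpnmb (0.202, 0.0551 to 0.519) were lower. Of the 115 Fabp4 UMIs behind this ratio 114 lay in the Higd1b cluster, and with at least 500 genes per cell 1 UMI was left and the ratio was 0.120. The Trem2 ratio was 1.95 as a mean over cells and 1.97 with at least 500 genes per cell, and without a mitochondrial limit Gpnmb stood at 0.529 and Lgals3 at 0.552. Endothelial-like cells in turn were above fibroblast-like cells in 3 of 9 genes, where 19.9% of 7335 genes were. These were Fabp4 (25.5-fold, 20.8 to 31.6), Lpl (14.1-fold, 5.83 to 37.5) and Cd36, at 0 in fibroblast-like cells and so at least 81.4-fold higher against a floor of 3 UMIs. Lgals3 was the 1 gene below (0.489, 0.238 to 0.901), where 15.5% of all genes were, and was 2-fold lower in only 6 of 12 alternatives. In cells of at least 3000 UMIs the Lpl ratio of these groups was 1.01, from 1 and 8 UMIs.

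Among the tumor-like clusters the 10 genes differed little. From Tnnt2 to Ogn cells only Fabp4, at 14.7 (13.7 to 15.8) and 46.6 CPM (43.3 to 50.2), differed by 2-fold among the 8 genes with enough UMIs, a ratio of 3.17 (2.86 to 3.51), where 11.2% of 13724 genes were at least 2-fold higher and 3.50% lower. From Tnnt2 to Cox6a2 cells none of the 8 genes differed by 2-fold, where 1.42% of 13356 genes were at least 2-fold higher and 16.3% lower. The median depth was 51207 UMIs in Tnnt2, 19723 in Ogn and 25762 in Cox6a2 cells. In Ogn cells 68 of 584 cells held a UMI of Fabp4, and 1 cell held 156 of 731. Fabp5 was 649 CPM (642 to 656) in Tnnt2, 635.0 CPM (619 to 651) in Cox6a2 and 362 CPM (353 to 372) in Ogn cells. Hilpda was 49.9, 52.8 and 70.3 CPM in Tnnt2, Cox6a2 and Ogn cells.

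Shares of cells with a UMI were compared after thinning each cell to 1000 UMIs, since depth differed between groups. T and NK-like cells served as the background (164 cells, median depth 4152 UMIs, 132 of them deep enough). They held 9 UMIs of Trem2 and 0 of Fabp4 and Lpl. Trem2 was then found in 50.5% (40.5 to 60.5) of Arg1 Spp1 cells, 26.8% (18.9 to 36.0) of interferon cells, 25.6% of monocyte-like cells, 0.380% of tumor-like and 1.52% (0.184 to 5.37) of T and NK-like cells. Before thinning 14.9% of tumor-like cells had a UMI of Trem2, against 88.6% of macrophage-like and 5.49% of T and NK-like cells. Hilpda was found in 46.6% (36.7 to 56.7) of thinned Arg1 Spp1 cells and 4.46% (1.47 to 10.1) of interferon cells, and 7.58% (3.69 to 13.5) of T and NK-like cells. T and NK-like cells held Hilpda at 118 CPM and Fabp5 at 175 CPM, so they were no background for these genes. Before thinning the Hilpda shares were 85.6%, 14.3% and 24.4%. Lgals3 was found in 99.0% of thinned Arg1 Spp1, 60.7% of interferon and 24.2% of T and NK-like cells, and Plin2 in 49.5%, 23.2% and 7.58%. For Fabp5 the shares were 55.3%, 13.4% and 16.7%. Lpl, at 1.94% and 0.893% of thinned Arg1 Spp1 and interferon cells and 0 of 132 T and NK-like cells, was too rare for a comparison at this depth. At least 4 of the 10 genes were found together in 47.6% of 103 thinned Arg1 Spp1 cells and in 2.68% of 112 interferon cells.

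**Figure D4:**
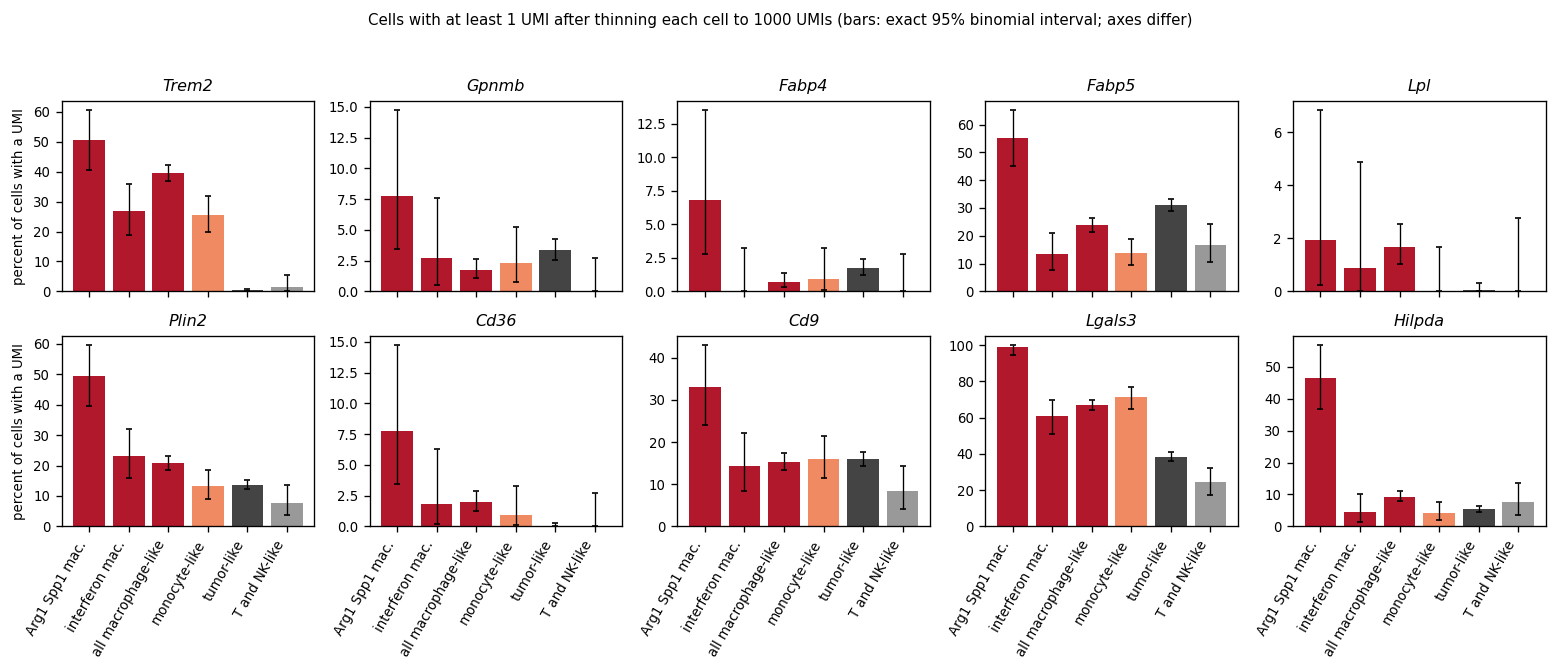
Percent of cells with at least 1 UMI of each gene (y axis, which differs between panels) after thinning every cell to 1000 UMIs, in 6 groups. Bars carry exact 95% binomial intervals for counting error. Hilpda is at 46.6% in Arg1 Spp1 cells and at 4.46% in interferon cells, and Trem2 is near 0 in tumor-like cells.

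Likeness of pattern was taken over the 16 groups of at least 30 cells, as the correlation of log2(CPM + 1) between genes, which share the same library and depths. Nearest to Trem2 were Tlr7 (r = 0.96), Syngr1 and Gdf3, and nearest to Hilpda were Bnip3l (r = 0.92), Rhoa and Ap3s1. Hmox1 (r = 0.94), Ninj1 and Grina were nearest to Plin2, Soat1 (r = 0.92), Mxi1 and Ftl1-ps1 to Lgals3, and Egln3 (r = 0.93), Htatip2 and Pgam1 to Gpnmb. The nearest of Fabp4 were Ptgfrn (r = 0.92), Npr3 and Procr, of Lpl Qk (r = 0.93), Flt1 and Wbp1l, of Cd36 Arrb1 (r = 0.91), Tm2d1 and Bst1, and of Cd9 Tnfrsf23 (r = 0.88), Nr2c1 and Tnfaip2. Fabp5 had no close neighbour, with Psmd8 first (r = 0.76), then Prdx1 and Gm20712. Among the 10 genes Cd36 and Lpl were most alike (r = 0.80), and Fabp4 and Lgals3 least (r = -0.54).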

How the data were processed

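Control MC38 tumors from 5 mice were dissociated, pooled and captured with the 10x Genomics Chromium system. The deposited UMI counts were made by the authors with Cell Ranger (version 5.0.1 per the file headers, another version in the methods) on GRCm38 (mm10). Cells with over 20% mitochondrial UMIs (667) and 172 cells with the highest simulated-doublet scores were removed, leaving 4468, and the minimum of 200 genes removed 0. Counts were scaled to 10000 per cell and clustered (2000 variable genes, 30 components, 20 neighbours, leidenalg 0.10.2, resolution 0.5; myeloid cells again with 1000 genes, 15 components and resolution 0.8). The 10 genes and both lists (70 genes) were left out of the clustering.

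A cluster was named where at least 3 markers stood 2-fold above the median of clusters, with tumor-like cells named first from Shisal2b and Rhox5 at 5 times the macrophage level, and a macrophage state where at least 50% of its list did. Clusters under 1 in 3 of the library's median depth with none of a type's markers among their 10 leading genes stayed unnamed. The marker lists were kept, but this naming rule was revised after the clusters and the levels of the 10 genes in them had been seen; earlier forms compared with all other cells, or asked for 3 raised genes alone. The members and lists were chosen with earlier results of these data known.

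Levels are pooled UMIs per 1000000 with exact Poisson intervals, shares have Clopper-Pearson intervals, and ratios exact conditional binomial intervals (95%, Python 3.11.15, scipy 1.17.1). A count of 0 was set to 3 UMIs for folds. A 2-fold limit was applied to genes with at least 10 UMIs in the 2 groups together. Named list genes are the 3 highest and 3 lowest ratios among those with at least 50 UMIs, and like genes the 3 with the highest Pearson r among genes with at least 100 UMIs; genes given with a count of 2-fold differences and genes of known roles beside the members were named after their values were seen. A gene counted in the lipid list is not reported here by name. Intervals and calls were tested on data simulated with counting error alone, which leaves the spread between cells untested. Positions are from GENCODE on GRCm38, promoters from RefSeq on GRCm38.p6. Called cells held 511 to 231902 UMIs each, and kept cells 95494118 in all.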

Additional observations from a re-analysis of the deposited data

How the results depend on the processing

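The count of genes higher in macrophage-like than in tumor-like cells was 5 of 10, and 4 under a 3-fold limit, over 15 alternatives. The count for Arg1 Spp1 over interferon cells was 9, and 8 where 3 raised genes alone named a state, over 14 alternatives. The Fabp4 ratio of endothelial-like over macrophage-like cells (524) was 264 as a mean over cells, 748 with 3000 variable genes and 338 without the cell with the most Fabp4 UMIs, and lay within its counting interval in the other 10 alternatives. All alternatives, 4 of them chosen after seeing the data (10 neighbours, states from 3 raised genes alone, cells of at least 3000 UMIs, and leaving out the top Fabp4 cell), moved 138 of 930 levels by over 1.5 times, 70 of these in the Arg1 Spp1 state. Interferon cells were not named with another seed, and endothelial-like cells neither with a 10% mitochondrial limit nor with 20 components, fibroblast-like cells not with that limit and monocyte-like cells not with at least 500 genes per cell, so those values could not be given; the cause was not tested. No paired analysis was possible because the data are 1 library. With 1 library no spread between tumors is known, fewer than 50 cells stand behind the endothelial-like, fibroblast-like, DC-like, granulocyte-like and C1q Mrc1 values, and genes with under 20 UMIs in a group have wide intervals.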
